A study of Ciona robusta with 7 samples.

Results

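The cells described here are EBF-positive precursors of the pharyngeal muscle lineage of *Ciona robusta*, split by their level of PCNA. *Ciona* is a tunicate, and its heart and pharyngeal muscles come from common founder cells that express Mesp. Cells of this lineage had been sorted from stage 38 juveniles as Mesp+ cells, labelled as progeny of the trunk ventral cells, and sequenced one by one with SMART-seq2 on 7 plates. The labels put all 7 plates in 1 group with the same stage, sorted cell type and protocol, give no treatment or genotype, and do not say how many animals were pooled. The plate was therefore taken as the replicate, and the spread between plates may be technical.

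Cells were chosen by measured values. Of 672 barcodes, 315 held at least 1000 genes above 0, and 89 of these were EBF-positive precursors: EBF1/2/3/4 stood at 100 CPM or more (CPM, reads of a gene scaled to 1000000 reads of the cell), and 5 muscle genes together (a myosin light chain, 2 troponins, a tropomyosin and an actin) stayed under 4000 CPM. PCNA at 200 CPM or more defined 42 PCNA-high cells, PCNA under 50 CPM defined 29 PCNA-low cells, and 18 cells lay between these bounds. The PCNA-high cells nearest the upper bound had 213.6 and 234.2 CPM, and the highest cell below it had 198.1 CPM. The PCNA-low cells nearest the lower bound had 48.0 and 38.21 CPM, and the lowest cell above it had 54.83 CPM. Among the PCNA-low cells, 14 had no PCNA read. In 2 of the 29, both from plate 3, a single read would already have reached the bound, so these 2 could be PCNA-low only with no read at all.

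PCNA is the ring-shaped sliding clamp that holds DNA polymerases on the template, and in dividing animal cells its transcript is most abundant around DNA synthesis. The helicase built from MCM proteins opens the DNA ahead of the clamp, DNA ligase seals the lagging strand, and histone chaperones rebuild chromatin behind it. EBF, also called COE, is a transcription factor of the pharyngeal muscle lineage in *Ciona*, where part of the EBF-positive cells stay undifferentiated while others become muscle. Genes are given below under the names of the deposited table, which follow orthologues in other animals, and the stated roles are known from vertebrates or yeast.

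PCNA-high cells had a median of 203760 reads and 2872 genes, PCNA-low cells 146130 reads and 2172 genes, and the cells between them 327770 reads and 3110.5 genes. The median EBF1/2/3/4 level was 620.43 CPM on the high side and 517.13 CPM on the low side, and the median of the 5 muscle genes together was 559.48 and 720.38 CPM. Whole plates held from 3703107 to 25448806 reads. Each of the 96 barcode sequences occurred on more than 1 plate, and 48 of the 89 precursors carried a barcode sequence that another precursor on another plate also had. Plates 2, 4, 5 and 7 held at least 3 cells on each side, 36 PCNA-high and 22 PCNA-low cells in all, and entered the comparison across genes. Plates 3 and 6 held 3 and 2 PCNA-high cells against 2 and 5 PCNA-low cells, and plate 8 held 1 PCNA-high cell and no PCNA-low cell.

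**Figure D1:**
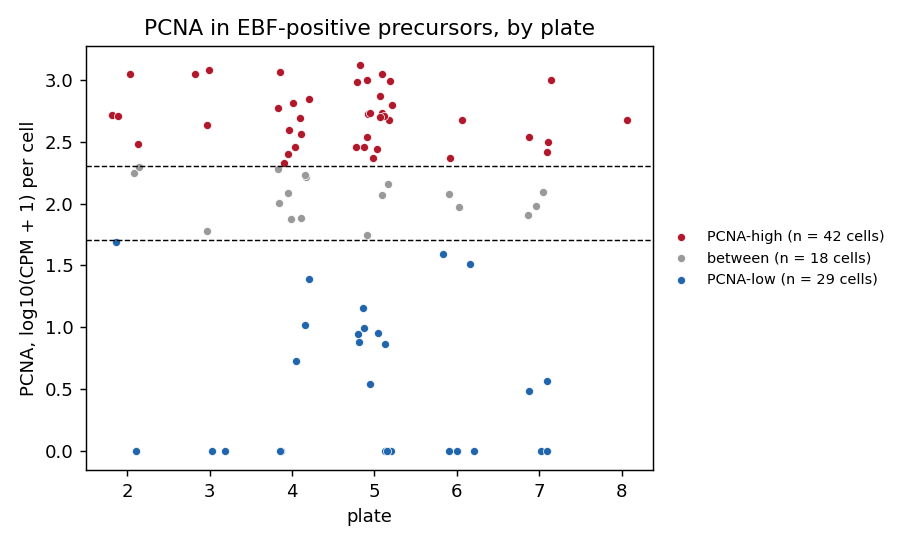
PCNA in each of the 89 EBF-positive precursors, as log10(CPM + 1), by plate; each point is a cell, coloured by PCNA range, and the dashed lines mark 200 and 50 CPM. Both sides are present on plates 2 to 7, and the 14 cells at 0 have no PCNA read.

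Reads were summed per plate and side, and the sides were compared within plates to ask which other transcripts went with high PCNA. With the plate as a block and p-values adjusted by the Benjamini-Hochberg method, edgeR's quasi-likelihood test called 9 of 7177 genes higher in PCNA-high cells (0.125%) and 1 lower (0.0139%) at an adjusted p under 0.05. At an unadjusted p under 0.05 it marked 240 genes (3.34%) as higher and 73 (1.02%) as lower, the shares to set beside the list counts below. The alternative test, DESeq2, called 42 higher (0.585%) and 16 lower (0.223%). Infinite prior degrees of freedom were estimated in this fit, and its standard errors (SE) and adjusted p-values pool the spread over all genes and are not a spread over plates. PCNA, EBF1/2/3/4 and the 5 muscle genes chose the cells and were left out of the tests. The median log2 fold change over all genes was 0.44, and 0.32 with DESeq2's size factors, so a fold change near these values is that of a typical gene.

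Among the 9 genes, 4 were higher in each of the 4 plates, and 2 of these encode proteins that bind PCNA. CHAF1A (KH.C4.613) encodes the large subunit of chromatin assembly factor 1, the chaperone that PCNA brings to new DNA to deposit histones. Its level in PCNA-high cells was 170, 23.7, 140 and 142 CPM on plates 2, 4, 5 and 7, against 0, 0, 4.36 and 2.53 CPM in PCNA-low cells. All 4 PCNA-high values lay above all 4 PCNA-low values, and CHAF1A rose by a log2 fold change of 6.08 ± 1.39 (SE, edgeR quasi-likelihood, adjusted p = 0.0163). A read of it was found in 19 of 42 PCNA-high, 8 of 18 intermediate and 5 of 29 PCNA-low cells.

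KIAA0101 (KH.C5.462) encodes the PCNA-associated factor, a small protein that sits on the clamp. It stood at 149, 82.0, 191 and 166 CPM on the high side and at 65.0, 0, 5.94 and 2.53 CPM on the low side. The sides did not overlap, although plate 2 stood apart from the other plates among PCNA-low cells. KIAA0101 rose by 4.71 ± 1.17 on the log2 scale (SE, edgeR quasi-likelihood, adjusted p = 0.0439). Reads were present in 32 of 42 PCNA-high cells, 11 of 18 between the bounds and 11 of 29 PCNA-low cells.

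CHID1 (KH.C12.319) encodes a protein named for its chitinase domain. PCNA-high cells held 164, 86.5, 180 and 107 CPM and PCNA-low cells 0, 3.11, 0.793 and 5.91 CPM. CHID1 rose by 5.96 ± 1.28 (log2 fold change, SE, edgeR quasi-likelihood, adjusted p = 0.00812). The share of cells with a CHID1 read was 90.5% (38 of 42, exact Clopper-Pearson 95% interval 77.4 to 97.3%) on the high side. It was 55.6% (10 of 18, 30.8 to 78.5%) between the bounds and 24.1% (7 of 29, 10.3 to 43.5%) on the low side. These shares pool cells over plates, and their intervals cover counting error only. Median depth differed between the PCNA ranges, and the shares were neither corrected for depth nor tested. PTRF (KH.C9.737), which encodes the caveolar coat protein cavin-1, stood at 49.0, 86.5, 63.2 and 127 CPM against 0, 0, 0.793 and 0.845 CPM (edgeR quasi-likelihood, adjusted p = 0.0439). Its low side rested on 3 reads against 901 on the high side, a ratio of read shares of 123. The 901 reads came from 15 of the 36 PCNA-high cells in the fit. The exact interval of that ratio, 42.1 to 599, treats each read as independent. It covers counting error only and not the spread between cells or plates.

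These 4 calls differed in how far they depended on single plates. CHID1 and CHAF1A were no longer called without plate 2 or without plate 5, and their adjusted p-values (edgeR quasi-likelihood) reached 0.52 and 0.366 there. KIAA0101 was called only when plate 2 was the plate left out, and PTRF in none of the 4 refits. Their log2 fold changes stayed positive throughout these 4 refits, at 5.39 to 6.77 for CHID1, 5.48 to 7.03 for CHAF1A and 3.95 to 5.84 for KIAA0101. Leaving out plate 5, which gave 18 of the 36 PCNA-high cells, removed the call of all 4. Counting all alternatives, CHID1 was called in 9 of 18, CHAF1A in 7 of 18, KIAA0101 in 4 of 18 and PTRF in 2 of 17. None of the 4 was called with EBF1/2/3/4 at 200 CPM or more, with PCNA at 100 CPM or more against under 20 CPM, or with plates of at least 1 cell on each side. The fit with other PCNA bounds used plates 4, 5, 6 and 7, so bounds and plates changed together. The smallest log2 fold changes, from limma on mean log2(CPM + 10), were 3.18 for CHID1, 2.13 for CHAF1A, 2.21 for KIAA0101 and 1.63 for PTRF. Over all genes, 2 were called higher without plate 4, 4 without plate 5, 8 without plate 2 and 10 without plate 7.

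Plates 3 and 6 were not in the fit and give the same genes in few cells. CHID1 stood at 216 against 0 CPM on plate 3 and at 86.8 against 8.84 CPM on plate 6, PCNA-high against PCNA-low. CHAF1A stood at 9.39 against 0 CPM on plate 3 and 143 against 38.9 CPM on plate 6. KIAA0101 was at 174 against 0 CPM and at 55.8 against 51.3 CPM. PTRF was at 93.9 against 63.7 CPM on plate 3 and at 0 against 33.6 CPM on plate 6, the only one of these 8 pairs with the PCNA-low side higher. The PCNA-low sum of plate 3 held only 15700 reads. Of the 19 genes with values in this text that were higher in each fitted plate, the high side was above the low side for 14 on plate 3 and 10 on plate 6, and below it for 3 and 8. Of the 9 that were lower in each fitted plate, the high side was below the low side for 4 on plate 3 and 3 on plate 6, and above it for 5 and 5.

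**Figure D2:**
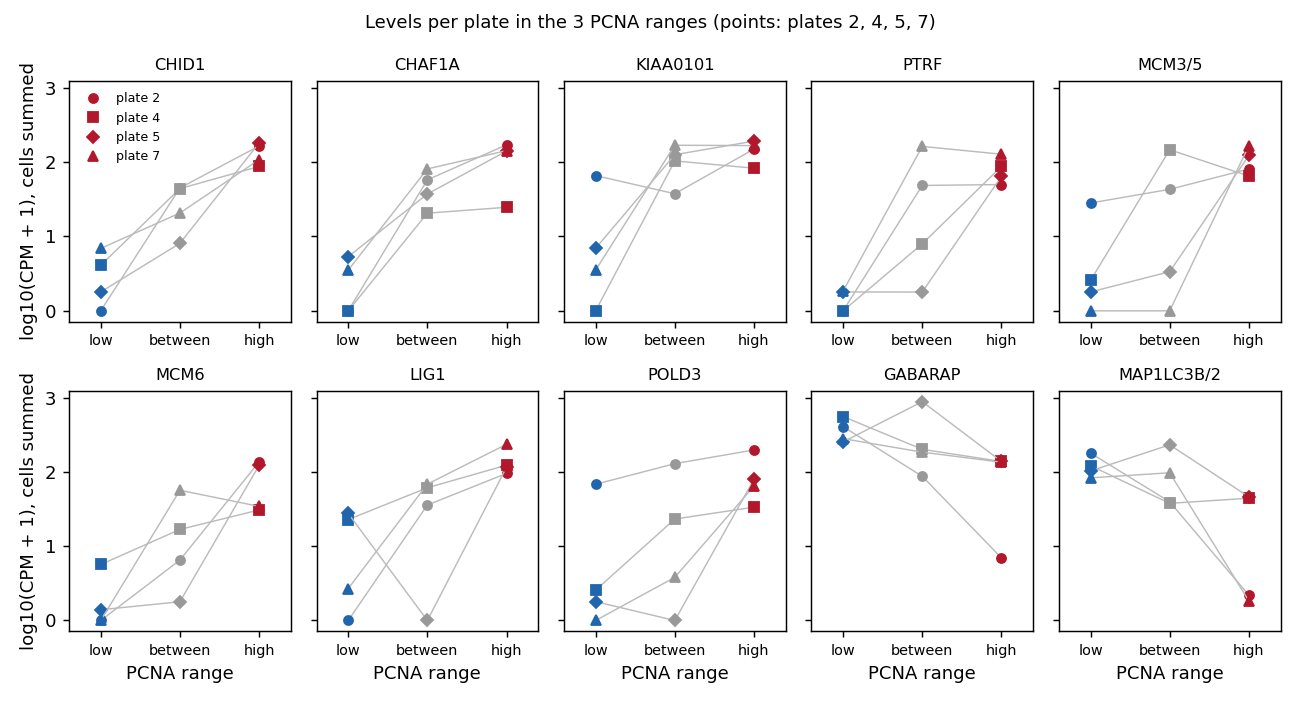
Levels of 10 genes, as log10(CPM + 1) of the reads summed per plate, in PCNA-low, intermediate and PCNA-high precursors of plates 2, 4, 5 and 7; each symbol is a plate and lines join the sums of 1 plate. CHID1 rises in each plate from low through intermediate to high, whereas GABARAP and MAP1LC3B/2 are lower on the high side than on the low side in each plate.

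DNA replication factors had mostly positive fold changes, although none passed on its own in the main test. Of 51 such genes in the table, PCNA apart, 48 had enough reads to be tested and 44 had a positive log2 fold change, against 4540 of the 7177 genes tested. Their median log2 fold change was 2.18, against 0.44 for all genes. None of the 48 passed edgeR's test in either direction, 12 were higher and 1 lower at an unadjusted p under 0.05, and DESeq2 called 5 higher. In 17 of the 48 PCNA-high exceeded PCNA-low within each plate, compared with 9.53% of all genes, and in 10 the sides did not overlap at all, compared with 3.41%. Summed over the list, PCNA-high cells held 2391, 1522, 2909 and 2655 CPM on plates 2, 4, 5 and 7, and PCNA-low cells 1228, 1039, 877.4 and 1184 CPM. The 4 high sums lay above the 4 low sums, and the sums of plates 3 and 6 were also higher on the high side, at 4232 against 445.9 CPM and 2177 against 730.4 CPM.

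Within the replication list, the 8 genes with an MCM name, MCM8 and MCM10 among them, all had positive log2 fold changes, from 0.77 to 6.66. MCM6 stood at 135, 29.7, 121 and 33.3 CPM against 0, 4.67, 0.396 and 0 CPM, with no overlap between the sides. Its log2 fold change was 6.66 ± 1.90 (SE), with an adjusted p of 0.184 by edgeR's quasi-likelihood test and 0.00189 by DESeq2. MCM3/5 stood at 80.0, 64.0, 122 and 165 CPM against 27.2, 1.56, 0.793 and 0 CPM, also without overlap (5.74 ± 1.52, adjusted p = 0.0791 by edgeR and 0.000846 by DESeq2). The MCM3 gene itself was less even, at 147, 62.2, 203 and 112 CPM against 56.6, 70.0, 1.59 and 51.5 CPM, and was lower on the high side on plate 4.

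The enzymes that build and join the new strands were arranged likewise. LIG1, the ligase that joins Okazaki fragments, stood at 94.3, 122, 114 and 234 CPM against 0, 21.8, 26.6 and 1.69 CPM. Its sides did not overlap and the log2 fold change was 4.27 ± 1.17 (SE), which missed the threshold in edgeR's quasi-likelihood test (adjusted p = 0.116) and passed in DESeq2 (0.0100). POLD3, a subunit of the polymerase that works on the PCNA clamp, stood at 196, 32.5, 78.2 and 63.3 CPM against 67.1, 1.56, 0.793 and 0 CPM. The PCNA-low value of plate 2 lay above the PCNA-high values of plates 4 and 7, so the sides overlapped (4.94 ± 1.51, edgeR adjusted p = 0.274, DESeq2 adjusted p = 0.0192). Of the 9 polymerase and primase genes tested, 8 had a positive log2 fold change, and all 6 clamp loader genes tested did, from 0.52 to 7.86.

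Other members of the machinery showed smaller or mixed differences. The 3 genes of replication protein A, which coats single-stranded DNA, had log2 fold changes from 0.49 to 1.71. RPA3 stood at 202, 84.2, 163 and 91.5 CPM against 107, 63.8, 70.5 and 122 CPM, overlapping and lower on the high side on plate 7. The nuclease and helicase DNA2 stood at 37.0, 45.2, 78.7 and 114 CPM against 0, 6.22, 135 and 45.6 CPM, with plate 5 the other way round. Of the 5 origin recognition genes, 3 had a positive fold change and 2 a negative one, over the range from -2.43 to 8.20. Single replication genes were not seen in every PCNA-high cell at this depth, LIG1 in 29 and MCM6 in 26 of the 42.

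Cell by cell, the replication sum covered a wide range on both sides. Its lowest, median and highest values were 298.6, 2093 and 6633 CPM in PCNA-high cells, 484.8, 1398 and 3845 CPM in intermediate cells, and 0, 731.7 and 2379 CPM in PCNA-low cells. The medians followed the PCNA range, but single cells overlapped. Of the PCNA-low cells, 3 of 29 reached the PCNA-high median, and of the PCNA-high cells, 6 of 42 were at or under the PCNA-low median. The cells are not replicates, so these counts are a description without a test.

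**Figure D3:**
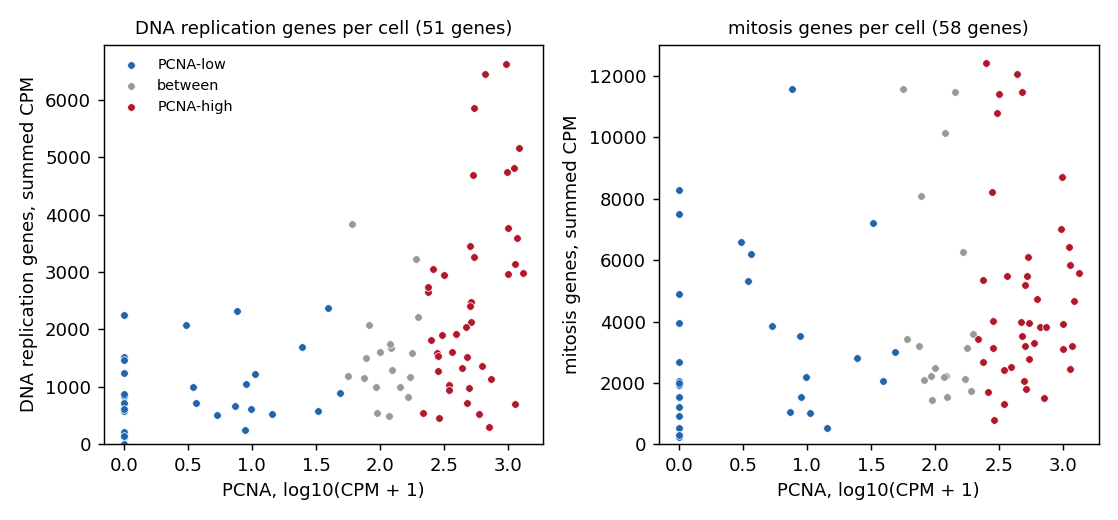
Summed CPM of 51 DNA replication genes (PCNA not among them) and of 58 mitosis genes in each EBF-positive precursor, against PCNA as log10(CPM + 1); each point is a cell, coloured by PCNA range. Replication sums above 4000 CPM are found in PCNA-high cells, whereas mitosis sums above 10000 CPM occur in all 3 ranges.

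Chromatin assembly and nucleotide supply were examined as companions of DNA synthesis. Of 20 chromatin assembly and methylation genes tested, 1 passed, CHAF1A, and the median log2 fold change was 1.58. At an unadjusted p under 0.05, 6 of the 20 were higher and 0 lower, against 3.34% and 1.02% of all genes. SUPT16H, a subunit of the FACT histone chaperone, stood at 320, 92.5, 210 and 44.9 CPM against 0, 0, 32.9 and 87.0 CPM, so plate 7 ran the other way (3.92 ± 1.23, edgeR quasi-likelihood adjusted p = 0.313, DESeq2 adjusted p = 0.0347). NASP, which carries histones to the chaperones, stood at 648, 329, 543 and 228 CPM against 184, 112, 152 and 230 CPM. On plate 7 its sides were level. HELLS, a remodelling ATPase needed for DNA methylation, stood at 131, 53.2, 146 and 81.6 CPM against 132, 1.56, 33.3 and 0.845 CPM, and overlapped through plate 2.

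Of 17 nucleotide synthesis genes tested, none passed, none was below an unadjusted p of 0.05 in either direction, and the median log2 fold change was 1.01. The thymidine kinase TK1 stood at 20.3, 26.7, 60.7 and 38.3 CPM against 0, 0, 11.5 and 13.5 CPM, without overlap (3.53 ± 2.19, edgeR quasi-likelihood adjusted p = 0.999). A second salvage enzyme outside the list, the deoxycytidine kinase DCK (KH.C14.492), was chosen after its values were seen. It stood at 115, 29.2, 167 and 52.4 CPM against 0, 1.56, 1.98 and 0 CPM, again without overlap (6.52 ± 1.66, edgeR quasi-likelihood adjusted p = 0.0576, DESeq2 adjusted p = 0.000707).

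Lists for other steps of the cell cycle had smaller medians than DNA replication, though above the 0.44 of all genes. At an unadjusted p under 0.05, 3.34% of all genes were higher and 1.02% lower. None of 17 tested drivers and controllers of the G1/S step passed, 3 were higher and 0 lower at an unadjusted p under 0.05, and their median log2 fold change was 0.97. Cyclin D (CCND1/2/3), which starts the cycle, stood at 407, 273, 323 and 278 CPM against 101, 170, 227 and 236 CPM. The sides did not overlap, but the difference was 0.79 ± 0.56 on the log2 scale (edgeR quasi-likelihood adjusted p = 0.999), close to the typical gene. CKS1/2, a subunit of cyclin-dependent kinases, stood at 168, 261, 340 and 124 CPM against 18.9, 3.11, 189 and 286 CPM, the reverse on plate 7. CHEK1, the checkpoint kinase of DNA synthesis, stood at 32.2, 43.2, 53.4 and 61.6 CPM against 0, 0, 25.8 and 1.69 CPM, and of its PCNA-low reads 82.1% came from 1 cell. The cell cycle inhibitor CDKN1B (KH.C14.564) stood at 49.0, 28.7, 45.8 and 44.9 CPM against 0, 0, 3.96 and 2.53 CPM. Neither passed (edgeR quasi-likelihood adjusted p = 0.999 for each).

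Of 52 mitosis genes tested none passed, and the median log2 fold change was 0.93. At an unadjusted p under 0.05, 5 of the 52 were higher and 0 lower, against 3.34% and 1.02% of all genes. Their sums were 4924, 3775, 4850 and 3530 CPM in PCNA-high cells and 3012, 2607, 3658 and 4994 CPM in PCNA-low cells, which overlapped and crossed on plate 7. Outside the fit, the mitosis sums were higher on the high side, at 6909 against 1975 CPM on plate 3 and 6709 against 6010 CPM on plate 6. NCAPD2 and SMC2, both of the condensin complex that compacts chromosomes, were higher on the high side on 3 plates and lower on plate 7. NCAPD2 stood at 154, 71.2, 147 and 89.1 CPM against 0, 14.0, 5.15 and 165 CPM. SMC2 stood at 129, 70.5, 63.3 and 1.66 CPM against 0, 1.56, 0.793 and 128 CPM. The plate 7 values of the low side rested on few cells, since 1 cell of plate 7 held 80.6% of all PCNA-low NCAPD2 reads.

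The kinesin KIF4A stood at 136, 119, 67.2 and 225 CPM against 23.1, 1.56, 210 and 16.1 CPM, with plate 5 reversed. The spindle kinase AURKA stood at 62.1, 41.5, 94.1 and 128 CPM against 71.3, 3.11, 8.72 and 1.69 CPM. In a panel of 7 mitotic genes chosen after values were seen (3 cyclins of the A and B type, 2 mitotic kinases and 2 other markers), reads of 3 or more genes were present in 20 of 42 PCNA-high cells (47.6%, exact Clopper-Pearson 95% interval 32.0 to 63.6%). They were present in 7 of 18 intermediate cells (38.9%, 17.3 to 64.3%) and in 11 of 29 PCNA-low cells (37.9%, 20.7 to 57.7%). A panel sum of 200 CPM or more was reached by 18 of 42 and by 12 of 29 cells. These shares pool cells over plates and describe the cells, without a test between the PCNA ranges.

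**Figure D4:**
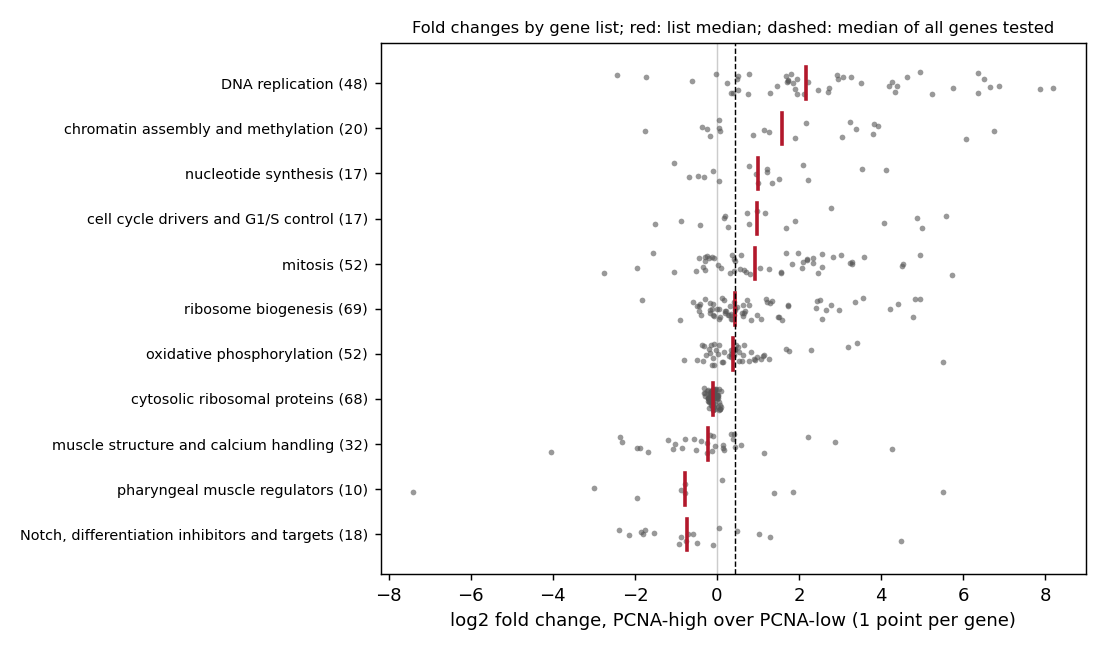
Log2 fold change of PCNA-high over PCNA-low EBF-positive precursors for each gene tested, in 11 lists (number of genes tested in brackets); red bars are list medians and the dashed line is the median of all genes tested, 0.44. The DNA replication list has the median farthest to the right of the 11 lists drawn, at 2.18 (the heart and mesoderm list, with 3 genes tested, is not drawn), and the ribosomal proteins lie in a narrow band near 0.

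The other 5 genes called higher rested mainly on a single cell. They were THETATRY (KH.S425.11) and EPSILONTRY, both trypsin-type digestive proteases by name, the lysosomal protease CTSD (KH.C1.1105), the glycosidase GAA (KH.L170.27) and a glutathione transferase, GSTE1/10/2/3/4/5/6/7/8/9 (KH.L116.50). Of the PCNA-high reads of these genes, 1 cell of plate 4 held 99.6% for THETATRY, 99.0% for EPSILONTRY, 99.6% for CTSD, 84.1% for GAA and 72.0% for the transferase. That cell had 683505 reads, 4982 genes, EBF1/2/3/4 at 116 CPM and PCNA at 214 CPM, each close to its bound. Without it, 2 genes were called higher by edgeR's quasi-likelihood test, CHAF1A and CHID1, and 1 lower. The cell held 0 of the CHAF1A reads and 19 of the 1642 CHID1 reads, and the replication list kept a median of 2.05 over 47 genes without it.

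The 1 gene that fell was KH.C7.140, which has no name in the table. It stood at 960, 23.3, 130 and 0 CPM in PCNA-low cells and at 2.39, 1.25, 7.70 and 0 CPM in PCNA-high cells (-5.33 ± 1.03, SE, edgeR quasi-likelihood adjusted p = 0.00083). Plate 7 held no read on either side, and 57.1% of the PCNA-low reads lay in 1 cell of plate 2. Without plate 2 the adjusted p of this gene was 1.

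Some named genes were lower in PCNA-high cells in each plate, as were 3.07% of all genes, without passing the main test, and these were chosen after their values were seen. GABARAP, an ATG8-family protein of autophagosomes and vesicle transport, stood at 5.97, 137, 137 and 134 CPM in PCNA-high cells against 405, 554, 252 and 279 CPM in PCNA-low cells. MAP1LC3B/2, of the same family, stood at 1.19, 43.2, 45.1 and 0.832 CPM against 178, 120, 102 and 82.0 CPM. The sides of neither gene overlapped, which in this direction held for 0.85% of all genes. Their log2 fold changes were -2.23 ± 0.62 and -3.72 ± 1.24 (SE, edgeR quasi-likelihood adjusted p = 0.141 and 0.434), and DESeq2 called both (adjusted p = 0.0364 and 0.0197). Outside the fit, plate 3 had the same direction, GABARAP at 28.2 against 1400 CPM and MAP1LC3B/2 at 4.7 against 63.7 CPM. On plate 6 both went the other way, GABARAP at 958 against 445 CPM and MAP1LC3B/2 at 118 against 17.7 CPM.

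The mRNA decay factor ZFP36L1/2 stood at 167, 337, 332 and 1040 CPM against 679, 852, 732 and 1620 CPM, lower on the high side in each plate although the sides overlapped. The ferritin FTMT, an iron store, stood at 2140, 2470, 2240 and 2970 CPM against 3750, 4980, 4770 and 3290 CPM (-0.81 ± 0.26, edgeR quasi-likelihood adjusted p = 0.38). Both plates outside the fit went the other way for FTMT, at 2120 against 1660 CPM on plate 3 and 13400 against 3960 CPM on plate 6. The phosphatase DUSP1/2/4/5, an early response gene in the list for dissociation stress, stood at 101, 43.2, 77.3 and 9.15 CPM against 788, 496, 53.1 and 77.7 CPM. It was reversed on plate 5 (-2.40 ± 0.70, edgeR quasi-likelihood adjusted p = 0.216). Of the 15 stress genes tested none passed, with 2 higher and 2 lower at an unadjusted p under 0.05. HSPA5, a chaperone of the endoplasmic reticulum, stood at 458, 699, 361 and 65.7 CPM against 191, 1050, 15.1 and 11.0 CPM.

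Regulators of the lineage did not pass in either direction. Of 18 genes listed as heart and mesoderm regulators only 3 had enough reads to be tested. Their median log2 fold change of 2.51 was the value of MATN1/3/4, with an SE of 2.52. The T-box factor TBX2/3 of that list stood at 66.9, 162, 39.2 and 270.0 CPM against 2.1, 59.1, 0.793 and 95.5 CPM, higher in each plate with overlap (log2 fold change 3.05, edgeR quasi-likelihood adjusted p = 0.404). It was at 0 against 127 CPM on plate 3 and 0 against 0.884 CPM on plate 6, outside the fit. TBX2/3 was read in 14 of 42 PCNA-high and 9 of 29 PCNA-low cells. In the fit, 1 cell held 43.7% of its PCNA-high reads and 1 cell 72.7% of its PCNA-low reads. Of 10 pharyngeal muscle regulators outside the rule, none passed, and 0 were higher and 1 lower at an unadjusted p under 0.05. The median log2 fold change was -0.78, with 4 positive and 6 negative, against 4540 positive and 2637 negative of all 7177 genes tested. With PCNA at 100 CPM or more against under 20 CPM, on plates 4, 5, 6 and 7, 6 of 9 were positive. Their median there was 0.13, against 0.82 for all genes. The LIM-homeodomain factor ISL1/2 stood at 89.5, 104, 138 and 117 CPM in PCNA-high cells against 249, 191, 180 and 133 CPM in PCNA-low cells. It was lower in each of the 4 plates, with an overlap at plate 7 of the low side (-0.78 ± 0.66, edgeR quasi-likelihood adjusted p = 0.999). On the plates outside the fit ISL1/2 was reversed, at 42.3 against 0 CPM on plate 3 and 96.1 against 27.4 CPM on plate 6. MEF2D, a muscle transcription factor, averaged 4.85 ± 3.46 CPM (SD, n = 4 plates) in PCNA-high cells. It stood at 14.7, 20.2, 27.7 and 188 CPM in PCNA-low cells, without overlap (-2.99 ± 1.64, edgeR quasi-likelihood adjusted p = 0.999). Outside the fit MEF2D was at 28.2 against 0 CPM on plate 3 and 37.2 against 36.3 CPM on plate 6. TBX1/10 of the pharyngeal list went the other way, at 2.39, 64.5, 19.2 and 0 CPM against 0, 3.11, 0 and 0 CPM (5.51 ± 3.26, edgeR quasi-likelihood adjusted p = 0.999). Its reads lay in 7 of 42 PCNA-high and 2 of 29 PCNA-low cells. Plate 3 had TBX1/10 at 0 against 63.7 CPM. The myogenic factor MYF5 had reads in 12 of 42 PCNA-high and 9 of 29 PCNA-low cells. Its level was 13.1, 11.5, 35.7 and 0.832 CPM against 0, 3.11, 109 and 0 CPM, and 79.5% of its PCNA-low reads lay in 1 cell, so the direction of this gene could not be read.

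In the main fit, most muscle structure genes outside the rule had negative fold changes. Of 32 tested none passed, and 0 were higher and 1 lower at an unadjusted p under 0.05. A negative fold change was found for 20, against 2637 of the 7177 genes tested, and the median was -0.21. That share differed with other bounds, while the list median stayed below that of all genes. With EBF1/2/3/4 at 200 CPM or more, 16 of 32 were positive, and the median was -0.0 against 0.58 for all genes. With PCNA at 100 CPM or more against under 20 CPM, 16 of 33 were positive, and the median was -0.19 against 0.82. That last fit used plates 4, 5, 6 and 7, so bounds and plates changed together. In the plates of the main fit, the muscle sums were 3530, 3707, 2734 and 2230 CPM against 3970, 5549, 2896 and 2767 CPM, lower on the high side in each plate but overlapping. Since the rule capped the 5 muscle genes on both sides, this range of muscle transcripts was limited by the choice of cells. The actin-bundling TAGLN/2/3 (KH.C4.230) stood at 23.9, 115, 105 and 9.99 CPM against 337, 673, 120 and 56.6 CPM (-2.32 ± 0.69, edgeR quasi-likelihood adjusted p = 0.261, DESeq2 adjusted p = 0.0127). The Z-disc protein PDLIM5/7 (KH.L173.2) stood at 15.5, 33.2, 55.1 and 43.3 CPM against 92.2, 246, 61.0 and 84.5 CPM, without overlap. The methyltransferase of sarcomere assembly, SMYD1, stood at 122, 31.7, 2.27 and 7.49 CPM against 231, 179, 80.8 and 5.91 CPM. Not all went this way, as the tropomyosin TPM1/2 (KH.C7.260) stood at 185, 403, 218 and 243 CPM against 60.8, 344, 129 and 50.7 CPM, higher on the high side in each plate.

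Notch signalling keeps precursors undifferentiated in many tissues, and ID proteins block myogenic factors. Of 18 tested genes of this list none passed and none was below an unadjusted p of 0.05, and 13 had a negative fold change (median -0.73). The Notch target HES1/4/5 stood at 304, 402, 524 and 589 CPM against 618, 1120, 623 and 602 CPM. It was lower in each plate and the sides did not overlap, by a log2 fold change of -0.75 ± 0.42 (SE, edgeR quasi-likelihood adjusted p = 0.999). ID1/2/3/4 (KH.C7.805) was abundant on both sides, with a read in each of the 42 PCNA-high and 29 PCNA-low cells. It stood at 4250, 4290, 2850 and 3930 CPM against 3200, 2420, 3190 and 5940 CPM, higher on 2 plates and lower on 2 (0.06 ± 0.26). NOTCH1, CCNB1/2 and GATA4/5/6 had too few reads to be tested.

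Lists for growth and energy supply followed. None of 69 ribosome biogenesis genes passed, 7 were higher and 0 lower at an unadjusted p under 0.05, and their median of 0.44 equalled that of all genes. Their sums were 7988, 5277, 8544 and 8211 CPM against 6047, 5520, 5075 and 5366 CPM, with plate 4 reversed. BOP1, a factor for the large ribosomal subunit, stood at 113, 72.2, 177 and 50.8 CPM against 41.9, 1.56, 26.6 and 0.845 CPM, without overlap (3.55 ± 1.25, edgeR quasi-likelihood adjusted p = 0.663). NOP5/58, of the small nucleolar particles, stood at 394, 293, 559 and 742 CPM against 94.3, 560, 213 and 102 CPM. None of 68 ribosomal protein genes passed or was below an unadjusted p of 0.05, and their median lay below that of all genes, at -0.09 against 0.44 with TMM scaling, -0.22 against 0.32 with DESeq2's size factors and 0.06 against 0.47 without plate 5. The fold change was negative for 54 of the 68 with TMM scaling. RPLP0, a stalk protein of the large subunit, stood at 16100, 15100, 14400 and 14400 CPM against 14500, 18500, 21200 and 18500 CPM.

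None of 52 oxidative phosphorylation genes passed, 3 were higher and 0 lower at an unadjusted p under 0.05, and the median was 0.40. SDHA, the flavoprotein of succinate dehydrogenase, stood at 70.4, 83.0, 61.8 and 92.4 CPM against 0, 6.22, 3.57 and 0 CPM. It did not overlap, and DESeq2 called it (adjusted p = 0.00729) while edgeR's quasi-likelihood test did not (5.50 ± 1.69, adjusted p = 0.279). UQCRB, of complex III, stood at 466, 350, 431 and 355 CPM against 258, 118, 128 and 234 CPM, without overlap (1.14 ± 0.53, edgeR quasi-likelihood adjusted p = 0.999). Of 25 signalling genes of the Wnt, FGF, BMP and TGF-beta families and 33 extracellular matrix genes, none passed, with medians of 0.10 and 0.40. In these lists 0 and 3 genes were higher and 0 and 1 lower at an unadjusted p under 0.05. DESeq2 called 5 replication, 2 chromatin, 1 matrix and 1 oxidative phosphorylation gene higher, and 1 muscle, 1 stress, 1 neural and 1 blood gene lower. It called 0 genes of the other lists.

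Markers of other cell types were present on both sides, none of the tested ones passed, and their part in the results was not tested. Summed over 22 neural and secretory markers, plates ranged from 231.4 to 339.5 CPM on the high side and from 185.9 to 1134 CPM on the low side. All 22 had a read in some cell of the fit. CELF3/4/5/6, an RNA-binding protein of that list, stood at 14.3, 6.25, 4.02 and 0 CPM against 184, 154, 59.0 and 0 CPM (-4.02 ± 1.48, edgeR quasi-likelihood adjusted p = 0.719, DESeq2 adjusted p = 0.0186). The sums of 36 ciliated cell markers ranged from 29.85 to 316.6 CPM against 188.2 to 689.6 CPM, and 4 of the 36 had no read in the cells of the fit, 3 of them axonemal dyneins. Outside the fit, the ciliated sum reached 7197 CPM in the small PCNA-low sum of plate 3, against 14.09 CPM on the high side. The 16 blood and endothelial markers ranged from 762.3 to 1134 CPM against 727.6 to 1229 CPM, and 3, among them RUNX1/2/3, were at 0. Most of that sum came from TIE1/2, a receptor tyrosine kinase known from vertebrate endothelium, at 906, 898, 904 and 607 CPM against 669, 711, 646 and 565 CPM (0.29 ± 0.39, edgeR quasi-likelihood adjusted p = 0.999). It was read in each of the 42 PCNA-high cells, and its levels were in the range of those of EBF1/2/3/4. The 19 epidermal and gut markers ranged from 46.61 to 201 CPM against 26.44 to 916 CPM, and 3, among them CDX1/2/4, were at 0.

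PCNA-high cells held more genes at equal depth. When each cell was thinned to 20000 reads, PCNA-high cells showed 2340.0, 2050.5, 1887.3 and 1677.0 genes per cell on plates 2, 4, 5 and 7, and PCNA-low cells 1961.7, 1568.0, 1599.8 and 1495.0. The means were 1988.7 ± 279.7 and 1656.1 ± 208.4 (SD, n = 4 plates), and the difference of 332.6 ± 128.2 genes was positive in 4 of 4 plates. The exact two-sided sign-flip permutation test gave p = 0.125, the smallest value that 4 plates allow. Without thinning, the difference was 670.1 ± 477.3 genes. Thinning left out 2 shallower cells, both outside these plates.

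The same PCNA bounds were applied to EBF-negative cells with few muscle transcripts, to ask whether these differences belonged to the EBF-positive precursors. Of 75 such cells, 22 were PCNA-high, 48 PCNA-low and 5 between, and plates 4, 5 and 7 held enough of both sides (20 and 40 cells). Of the 8370 genes tested there by edgeR's quasi-likelihood test, 3 were called higher (0.0358%) and 29 lower (0.346%). Among these calls were FTMT (-1.54 ± 0.29, SE, edgeR quasi-likelihood adjusted p = 8.11e-05) and HSPA5 (3.43 ± 0.82, adjusted p = 0.00932). Both had the same sign in the precursors, without passing the main test. FTMT was reversed on plate 7, at 7250 against 5280 CPM, and 1 cell held 56.1% of its PCNA-low reads. For HSPA5, 1 cell held 54.4% of the PCNA-high reads. In EBF-negative cells the median log2 fold change was 3.81 over 45 DNA replication genes, against 0.39 for all genes. CHID1 stood at 81.4, 116 and 137 CPM against 36.7, 1.78 and 0.907 CPM on plates 4, 5 and 7, and LIG1 at 127, 94.2 and 83.8 CPM against 16.8, 1.78 and 0 CPM. In both classes CHID1 and LIG1 were higher on the PCNA-high side in each plate fitted. Neither passed in EBF-negative cells (edgeR quasi-likelihood adjusted p = 0.388 and 0.21), and 0 of the 45 replication genes did. CHAF1A and KIAA0101 were also higher there on each of these plates. PTRF was reversed on plate 4, at 32.7 against 60.6 CPM, and higher on the PCNA-high side on plates 5 and 7. GABARAP and DUSP1/2/4/5 were lower on the PCNA-high side on each of these plates, without passing. MAP1LC3B/2 was lower on plates 4 and 5 and reversed on plate 7, at 152 against 77.1 CPM.

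The difference between the EBF-positive and EBF-negative contrasts was tested directly, by an interaction term over plates 4, 5 and 7. Of 9344 genes, edgeR's quasi-likelihood test called 16 with a higher contrast in the EBF-positive precursors (0.171%) and 1 with a lower one (0.0107%), and DESeq2 called 97 (1.04%) and 36 (0.385%). At an unadjusted p under 0.05, edgeR's test marked 3.09% of genes as higher and 1.62% as lower. Of 50 replication genes tested 0 were called by edgeR, and 2 had an unadjusted p under 0.05. For CHID1 the difference of log2 fold changes was 1.70 ± 1.96, for LIG1 -1.06 ± 1.76, for KIAA0101 2.58 ± 1.55 and for CHAF1A 2.11 ± 1.91 (SE, edgeR quasi-likelihood adjusted p = 1 for each). These errors are wide, so neither a shared nor a separate response is shown for single genes.

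Of the 17 genes called in that interaction test 7 have a gene name, and for 5 of these 1 cell held most of the reads of the group with the most reads. The exceptions in that group were C7H11ORF46 (36.9%) and SPINK1/2 (34.7%), but single cells also weighed on their other groups. For SPINK1/2, 1 cell held 84.4% of the reads in PCNA-low precursors, 68.8% in PCNA-high precursors and 73.1% in PCNA-high EBF-negative cells. For C7H11ORF46, 1 cell held 67.0% of the 227 reads in PCNA-low precursors. Its PCNA-high precursors held 7 reads and its PCNA-low EBF-negative cells 1 read. The adhesion receptor LPHN1/2 (KH.C11.269) differed by 6.47 ± 1.24 and the matrix protein HMCN1 (KH.C6.197) by 7.32 ± 1.50 (SE, edgeR quasi-likelihood adjusted p = 0.000907 and 0.00319). In the precursors LPHN1/2 stood at 39.7, 41.6 and 9.99 CPM against 52.9, 21.4 and 0.845 CPM on plates 4, 5 and 7, and in EBF-negative cells at 33.5, 10.7 and 0.847 CPM against 3090, 102 and 12.7 CPM. Most reads of both genes lay in the PCNA-low EBF-negative cells, where 1 cell held 94.8% of the LPHN1/2 reads and 99.1% of the HMCN1 reads.

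CHID1 was also counted by PCNA range in the other classes of sorted cells, as a description. A CHID1 read was present in 17 of 22 PCNA-high and 12 of 48 PCNA-low EBF-negative cells with few muscle transcripts. In EBF-positive cells with muscle transcripts it was present in 14 of 16 PCNA-high and 7 of 29 PCNA-low cells. In EBF-negative cells with muscle transcripts it was present in 3 of 6 PCNA-high, 4 of 5 intermediate and 13 of 81 PCNA-low cells. In both EBF-negative classes the share was 80.0% in the 5 intermediate cells, above that of PCNA-high cells. Over PCNA-high cells there were 0.269 CHID1 reads per PCNA read in the precursors, 0.240 in the EBF-negative class with few muscle transcripts, 0.157 in the EBF-positive class with muscle transcripts and 0.153 in the EBF-negative class with them.

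The share of cells that were PCNA-high was 47.2% among the precursors (42 of 89, exact Clopper-Pearson 95% interval 36.5 to 58.1%). It was 27.1% among EBF-positive cells with muscle transcripts (16 of 59, 16.4 to 40.3%), 29.3% among EBF-negative cells with few (22 of 75, 19.4 to 41.0%) and 6.52% among EBF-negative cells with many (6 of 92, 2.43 to 13.7%). These intervals cover counting error only. Median depths were 194990, 220972, 112544 and 104040.5 reads per cell in the same order, and the lower depth of the EBF-negative classes was addressed by thinning, in which each difference kept its sign.

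Over plates, these 3 differences did not pass. Precursors minus EBF-negative cells with muscle transcripts came to 42.7 ± 15.3 percentage points (SD over plates), positive in 4 of 4 plates (exact sign-flip permutation test, p = 0.125, the smallest possible with 4 plates, adjusted over 3 comparisons 0.281). Against EBF-negative cells with few muscle transcripts the difference was 16.8 ± 23.3 points, positive in 4 of 5 plates (exact permutation p = 0.188, adjusted 0.281). Against EBF-positive cells with muscle transcripts it was 7.18 ± 37.7 points, positive in 4 of 6 plates (exact permutation p = 0.719, adjusted 0.719). In the last comparison plate 7 held only 3 cells with muscle transcripts, all PCNA-high, and without that plate the difference was 21.3 points (exact permutation p = 0.125).

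**Figure D5:**
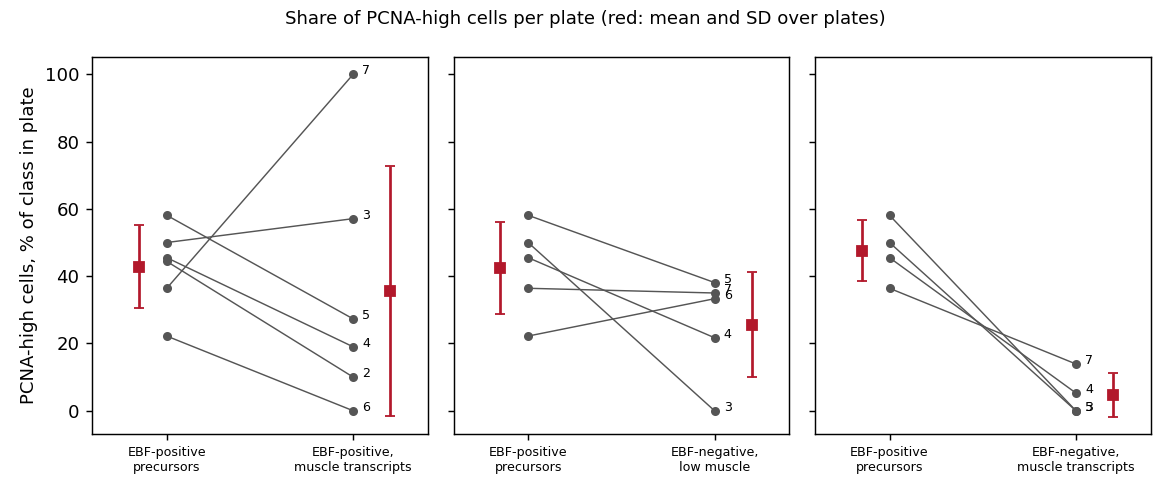
Share of PCNA-high cells among EBF-positive precursors and among 3 other classes, in percent of the class in a plate; lines join the values of 1 plate, numbers name the plate, and red squares with bars are the mean and SD over plates. Precursors lie above EBF-negative cells with muscle transcripts in 4 of 4 plates, and the other 2 pairs of classes overlap.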

How the data were processed

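The authors deposited raw read counts of each gene in each barcode of SMART-seq2 single cells, without molecular identifiers, so intervals cover counting error only. featureCounts is named per the submitters' processing notes, and the column names in the file header carry the TopHat output name. Versions, settings, strand and genome build are not given in the sources used here. The gene models are KH2013. A name with slashes belongs to 1 gene model and lists several orthologues of other animals, and similar paralogues may share reads. CPM was computed here from the deposited counts without the 5 reporter rows. The design text states 386 cells, and of the 672 barcodes the filter of 1000 genes above 0 left 315. No doublet caller was run.

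Reads were summed per plate and PCNA side where a plate held 3 or more cells of both sides, so deep cells weigh more. The sums were tested with edgeR 4.0.16 (quasi-likelihood, plate as block, TMM, filterByExpr, R 4.3.3), with Benjamini-Hochberg adjustment over all genes tested and a threshold of 0.05. Both sides of a plate come from 1 sample, which is where the pairing comes from. Shares and genes per cell were tested over plates with exact sign-flip permutations (scipy 1.17.1). The fits were run on simulated plate sums with the same spread for all genes and no outlying single cells. Such sums cannot show how calls that rest on 1 cell arise. DESeq2 1.42.0, limma 3.58.1 (pseudocount 10 CPM) and other bounds were alternatives. Members, the 19 gene lists and tests were chosen with earlier results of these data known. Named genes were up to 12 of the largest folds each way among passing genes that moved alike in every plate, up to 4 of each list with the smallest adjusted p, a fixed set of regulators (CDK1 was not found by name), and genes stated as chosen later.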

Additional observations from a re-analysis of the deposited data

Results flagged for a closer look

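Of 110 sets of 4 plate values examined, 19 had 1 plate far from the other 3, and chance alone gives about 1 in 20. Plate 2 was the far, high plate among PCNA-low cells for KIAA0101 (65.0 CPM), KH.C7.140 (960 CPM), MCM3/5 (27.2 CPM), POLD3 (67.1 CPM) and AURKA (71.3 CPM), and it was far below the others for GABARAP among PCNA-high cells (5.97 CPM). Plate 4 was far above the others among PCNA-high cells for THETATRY (KH.S425.11) at 3310 CPM, CTSD (KH.C1.1105) at 1360 CPM and EPSILONTRY at 641 CPM, where 1 cell held nearly all reads. It was also far above the others among PCNA-low cells for THETATRY (32.7 CPM), PDLIM5/7 (KH.L173.2) (246 CPM) and HES1/4/5 (1120 CPM). Plate 5 was the far, high plate among PCNA-low cells for CHEK1 (25.8 CPM), KIF4A (210 CPM) and MYF5 (109 CPM), and plate 7 for NCAPD2 (165 CPM), SMC2 (128 CPM) and MEF2D (188 CPM). Plate 7 was the far, low plate among PCNA-high cells for TIE1/2 (607 CPM).

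The PCNA contrast differed between EBF-positive and EBF-negative cells for 16 genes in the higher and 1 gene in the lower direction, by the interaction test. Among the named ones were LPHN1/2 (KH.C11.269) with a difference of log2 fold changes of 6.47, HMCN1 (KH.C6.197) with 7.32 and GSTE1/10/2/3/4/5/6/7/8/9 (KH.L116.50) with 6.96, each carried mainly by reads of 1 cell.

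Reporter rows, used in no comparison, held 124 GFP reads and 724 LacZ reads in the EBF-positive precursors. Of the LacZ reads, 683 lay in 1 cell of plate 4.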

How the results depend on the processing

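Few calls, 4 plates and uneven reads per cell limit these results. The main counts were 9 genes higher and 1 lower in PCNA-high precursors. DESeq2 gave 42 and 16, DESeq2's size factors 4 and 2, and no filter on low counts 9 and 3. Plates with at least 1 cell on each side gave 0 higher, PCNA at 100 CPM or more against under 20 CPM 0 and 0, EBF1/2/3/4 at 200 CPM or more 0 higher, cells thinned to 20000 reads 0 and 0 of 1466 genes tested, and limma on mean log2(CPM + 10) 3 and 0. With PCNA at 100 against 20 CPM the plates were 4, 5, 6 and 7, so bounds and plates changed together. The fit with no replicate block gave 0 and 0, over 5195 genes tested, so block and gene set changed together. After seeing the data, leaving out the cell with the most THETATRY reads gave 2 higher, and edgeR with robust spread 2 lower. Leaving out each plate gave 2 to 10 higher and 1 to 3 lower. For the interaction, DESeq2 gave 97 higher and 36 lower, and leaving out each plate 2 to 45 higher and 0 to 10 lower. PCNA at 400 CPM or more against 0 reads could not be fitted, with 1 plate left. The cause of these changes was not tested. With PCNA-high set at 400 CPM or more, the share of precursors exceeded that of EBF-positive cells with muscle transcripts by 19.4 points (exact permutation p = 0.0312). Leaving out each plate gave 282.6 to 382.8 more genes per cell, and share differences of 1.73 to 21.3, 8.48 to 23.8 and 37.6 to 49.4 points. TBX1/10 was not among the named genes followed over the alternatives. Of 944 pairs of a named gene and an alternative, 821 kept direction and side of the threshold, and 50 of 55 named genes never reversed. The reversals were RPA3 at -0.15 with plates of at least 1 cell a side, ISL1/2 at 0.05 with PCNA 100 against 20 CPM, and MYF5 at -1.24 without the block and -0.16 with at least 5 cells a side. HMCN1 (KH.C6.197) reversed at -0.63 with DESeq2, -0.12 with its size factors, -0.35 with at least 5 cells a side and -0.33 to 0.06 when single plates were left out, against 0.05. ID1/2/3/4 (KH.C7.805), near 0 throughout, reversed at -0.06 with DESeq2 and with its size factors, -0.05 without the block, -0.27 to 0.32 when single plates were left out, -0.29 with PCNA 100 against 20 CPM, -0.12 with muscle under 2000 CPM and -0.09 with 1500 genes or more.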
